A study of Arabidopsis thaliana with 30 samples.

Results

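The acid response of columella cells was compared with that of the other main cell types of the Arabidopsis root. For each probe set, the change from pH 5.7 to pH 4.6 in columella was set against the mean of the same change in the other four: epidermis with lateral root cap, cortex, endodermis with quiescent center, and stele. All 30 arrays of the series entered, 6 of columella and 24 of the other cell types, with 3 arrays at each pH in each cell type. Of 22746 probe sets tested, 1928 differed in response between columella and the mean of the other four (8.48%).

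All plants were of the Columbia ecotype and differed by a GFP marker line: Pet111::GFP for columella, pWER::GFP for epidermis with lateral root cap, pCOR315.1::GFP for cortex, pSCR::GFP for endodermis with quiescent center, and pWOL::GFP for stele. Every plant spent its first 5 days at pH 5.7 and then 24 h on fresh medium, of pH 4.6 for the treated groups and pH 5.7 for the control groups. The fresh medium of all groups held 3 mM DMG as its buffer, so the control plants had also been moved and changed buffer. Roots were protoplasted at 6 days, GFP-positive cells were sorted, and RNA of the sorted cells was amplified by the Affymetrix two-cycle protocol and hybridised to ATH1 arrays. Nothing in the sources used here ties replicates to separate plants or sorts, so the spread behind every p-value is that between samples and may be technical in part or whole.

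Columella cells form the centre of the root cap, at the tip of the root. They hold starch-filled plastids that settle under gravity, they secrete mucilage, and their outer layers are shed as the root grows. Plant cells that meet acid outside must hold their cytoplasm near neutral, which is done by proton pumps of the plasma membrane and vacuole. Metabolic genes are known to shift as well, among them those of fermentation, which ends in ethanol or lactate, and those of the NAD(P)H dehydrogenases that feed electrons into the mitochondrial chain without pumping protons.

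Signals are MAS5 intensities scaled by the authors, and array medians lay between 43.7 and 71.7. The median SD of replicates was 0.22 log2 in columella at pH 4.6 and 0.24 at pH 5.7, and 0.22 to 0.31 in the other groups. The columella label was checked on 2 measured markers, AT1G65570 and AT1G72490, whose signals summed to 9880.0 to 14442 on columella arrays at pH 5.7, to 7904 to 8809 at pH 4.6, and to 31.2 to 1535 on all others; neither marker was called in columella, and 10 further markers of that list were not analysed here. Markers of epidermis, cortex and endodermis were low in columella. Summed signals of the 2 epidermis markers were 20.6 to 50.0 at pH 4.6 and 19.4 to 81.0 at pH 5.7, those of the 4 cortex markers 10.01 to 61.1 and 27.8 to 111, and that of the endodermis marker GSO1 29.8 to 38.3 and 37.4 to 45.6. The 2 stele markers PHV and LHW summed to 800.1 to 825 at pH 4.6 and 549.9 to 730.1 at pH 5.7 in columella, against 545 to 986 and 311 to 474 in stele, so at pH 5.7 columella lay above stele; neither was called in columella. In their own cell types the summed markers of epidermis, cortex and endodermis were lower at pH 4.6 than at pH 5.7, at 1046 to 1559 against 2809 to 8896 for epidermis, 3003 to 4203 against 7086 to 8195 for cortex and 3008 to 5973 against 6901 to 7232 for endodermis. Some of these markers were also found outside their own cell type. The epidermis markers summed to 1485 to 3303 at pH 5.7 and 548 to 933 at pH 4.6 in stele. GSO1 gave 1271 to 1814 and 993 to 1454 in stele, and 829 to 2698 and 291 to 609 in cortex. In the mean response of the other four, both epidermis markers, 3 of the 4 cortex markers and GSO1 were called lower. None of these measured markers is at 0. The ratio of 3′ to 5′ signal of the GAPDH control was lower at pH 4.6 by 0.59 log2 in columella, by 0.19 in epidermis, by 1.00 in cortex and by 0.55 in endodermis, with exact p = 0.1 in each of these 4 by permutation, the least possible for 3 against 3 arrays. Actin and ubiquitin ratios in columella moved by -0.04 and 0.04, and the ubiquitin ratio in cortex was lower by 0.64 (exact permutation p = 0.1). The part of marker levels and of these ratios in the results was not tested, and in sorted bulk samples fewer cells of a kind and less RNA per cell cannot be told apart.

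Changes are given on the scale of log2(signal + 12), ± SE from one limma fit over all 10 groups. A fold is 2 to the power of that change, so it understates the ratio of signals near 12. A difference always means the columella response minus the mean response of the other four, and a call means a Benjamini-Hochberg adjusted p under 0.05 over all 22746 probe sets.

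Of the 1928 called differences, 833 (3.66% of all tested) were higher and 1095 (4.81%) were lower in columella. With arrays set to equal medians, the split turned to 964 higher and 788 lower, so the balance of directions depended on the scaling. In all, 1913 of the 1928 had the sign of the difference against each of the other four separately. Over all 22746 probe sets, 11607 did so. The other four make up the mean, so this agreement follows in part from the choice of called differences. The test against all of them was passed by 373 (1.64% of all tested). The pairwise differences gave 1215 calls against epidermis (5.34%), 1391 against cortex (6.12%), 1263 against endodermis (5.55%) and 1122 against stele (4.93%). Within columella, 3334 probe sets responded (14.7%), 1594 higher (7.01%) and 1740 lower (7.65%). Taken singly, the responses of epidermis, cortex, endodermis and stele were called for 6.53%, 13%, 11.2% and 4.66% of probe sets. The mean response of the other four was called for 6204 (27.3%), 3623 higher (15.9%) and 2581 lower (11.3%). That mean rests on 24 arrays and columella on 6, so the 2 counts have unequal power.

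The same contrast was computed for each cell type in turn. It gave 216 calls for epidermis (0.95%), 314 for cortex (1.38%), 123 for endodermis (0.541%) and 143 for stele (0.629%), against 1928 for columella. These contrasts use the same 30 arrays, so the columella response also enters the mean that each of the others is set against, and no test compares the counts.

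Called differences were sorted by where the response lay. A response particular to columella, with the columella change called and the mean of the other four uncalled and under 0.5 log2, and none of the other four called in the direction of columella, was found for 330 probe sets that rose (1.45%) and 591 that fell (2.6%). A response missing from columella, with the mean of the other four called and columella uncalled and under 0.5 log2, and all of the other four of the sign of their mean, was found for 153 that rose elsewhere (0.673%) and 124 that fell elsewhere (0.545%). Opposite responses were found for 71 probe sets that rose in columella (0.312%) and 81 that fell there (0.356%). A columella response with the sign of the mean of the other four was larger in columella for 147 that rose (0.646%) and 156 that fell (0.686%), and smaller for 5 (0.022%). The other 270 had no class (111 with a negative columella change, 0.488%, and 159 with a positive one, 0.699%). An uncalled change is not a change shown to be 0, so the test behind every class is that of the difference. All 4 pairwise tests were passed by 79 of the 152 probe sets with opposite responses, by 197 of the 921 particular ones and by 7 of the 277 missing ones.

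**Figure D1:**
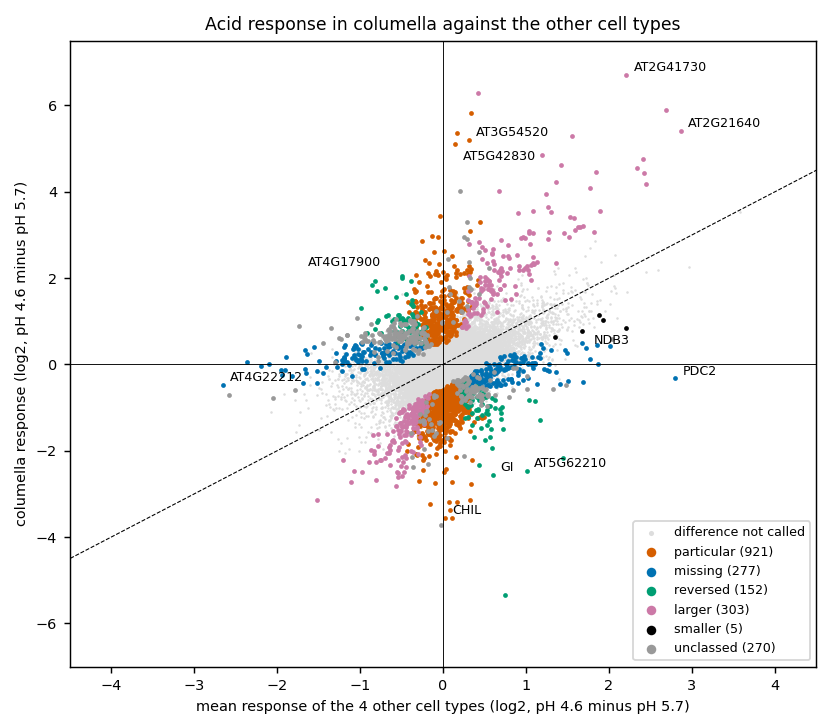
Acid response in columella (vertical, log2 change from pH 5.7 to pH 4.6) against the mean acid response of the 4 other cell types (horizontal, same unit) for all 22746 probe sets; the dashed line marks equal responses. Coloured points are the 1928 called differences by class, with 921 particular points around the vertical axis, 277 missing points along the horizontal axis and 152 reversed points in the upper left and lower right.

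Genes are named from probe sets with a single gene and a highest group mean of at least 100, by size of the difference within each class. For particular, opposite and larger responses, values at both pH had to be without overlap in columella, a condition that 33.7% of all probe sets met; for missing responses this was asked of at least 3 of the other four instead. Up to 3 called members of each gene list described further on are named as well. The difference is from a mean, and not every named gene passed the test against each cell type. All 4 pairwise tests were passed by 10 of the 14 named particular genes that rose and 8 of the 12 that fell, by 1 of 6 for rises and 1 of 6 for falls missing from columella, and by 5 of 9 larger rises and 3 of 4 larger falls. The extremes of the difference, 5.87 and -6.09 log2, belonged to probe sets without a single gene in the table used for names, and they are not named. Many of the named genes have no symbol in the annotation used, and no role is given for those.

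Among the genes that rose in columella and not in the mean of the other four, AT5G42830 and AT3G54520 had the largest differences. AT5G42830 had signals of 21.9, 24.7 and 25.6 on the columella arrays at pH 5.7 and 1335, 1439 and 974 at pH 4.6. In the other cell types its means ran from 93.8 in endodermis to 884 in epidermis at pH 5.7, and none of their responses was called. The gene thus had its lowest mean in columella at pH 5.7 and its highest there at pH 4.6, with a difference of 4.96 ± 0.35 (limma adjusted p = 1.15e-10). AT3G54520 gave 38.8, 26.7 and 12.4 at pH 5.7 and 1334, 1320.2 and 1347 at pH 4.6 in columella. It stayed between 1.24 and 97.1 in the group means of the other cell types, so its pH 4.6 level in columella lay above those of all other groups (difference 4.90 ± 0.40, limma adjusted p = 2.27e-09).

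Next in size came AT5G15950. Its columella signals were 4.55, 4.70 and 1.79 at pH 5.7, all under the added 12, and 133, 105 and 74.2 at pH 4.6. The other cell types held 187 to 739.9 at pH 5.7 and did not respond by the test, and the difference was 3.12 ± 0.27. AT5G51440, entered in the list of mitochondrial stress genes as the small heat shock protein HSP23.5, gave 152, 171 and 160.2 and 1484, 1252 and 1645 in columella. It was 8.46-fold higher there, while the changes elsewhere were 0.18 to 0.48 log2 and uncalled. The gene thus started below the other cell types and ended above them, with a difference of 2.75 ± 0.37 (limma adjusted p = 9.79e-06).

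AT5G65660 had columella signals of 1165, 1196 and 1014 at pH 5.7 and 4687, 4270.2 and 5021 at pH 4.6, against means of 1666 to 2368 in all other groups. Its difference was 2.20 ± 0.18 with a limma adjusted p of 2.27e-09. AT2G18180 was alike in all cell types at pH 5.7, with means of 24.8 to 30.1, and gave 147, 176 and 177 in columella at pH 4.6. AT2G18180 thus had a level in columella at pH 4.6 that no other group mean came near (difference 2.19 ± 0.30). The other 4 named genes of this class had differences of 2.85 for AT3G15450, 2.64 for AT5G05190, 2.39 for AT5G43520 and 2.14 for AT2G32150. AT5G43520 lost its call at a pseudocount of 1 (adjusted p = 0.057). In cortex AT5G43520 had a positive, uncalled change of 0.67, and columella minus cortex was uncalled (1.40, limma adjusted p = 0.15).

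Genes that fell in columella and not in the mean of the other four included a pair of flavonoid genes. CHIL, a chalcone isomerase-like protein that helps the first steps of flavonoid synthesis, gave 575, 534 and 595 at pH 5.7 and 21.2, 67.5 and 34.0 at pH 4.6 in columella. Elsewhere its means were 240.1 to 3047 at pH 5.7 and 330.5 to 2750.1 at pH 4.6. CHIL thus fell 11.7-fold in columella and had no called response elsewhere, with a difference of -3.57 ± 0.34 (limma adjusted p = 3.59e-08). UGT78D1, which puts rhamnose on flavonols, gave 123, 116 and 163 at pH 5.7 and 15.9, 9.68 and 3.75 at pH 4.6. Its means in the other groups were 10.6 to 29.1, so that columella was the bright cell type at pH 5.7 and lay at the level of the rest at pH 4.6 (difference -3.10 ± 0.55).

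COR27, a cold-regulated gene that acts in the circadian clock, gave 465, 635 and 798 at pH 5.7 and 136, 139.5 and 99.9 at pH 4.6 in columella. In the other groups its means were only 8.79 to 31.0. The values did not overlap in columella and the difference was -2.56 ± 0.49, with a limma adjusted p of 0.00089 that rose to 0.059 at a pseudocount of 1. AT4G15700 went from 229.8, 183 and 187 to 25.9, 10.8 and 1.33 in columella and was under 12 in every other group mean. AT3G25810 went from 387, 255 and 270.1 to 39.6, 31.0 and 75.7. Like AT4G15700 it was dim elsewhere, at most 16.3, so a fall elsewhere could hardly have been measured for these genes.

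AT1G56300, AT4G14270 and AT4G18280 were well measured in the other cell types too. AT1G56300 fell from 737 ± 99.8 to 103 ± 13.3 (SD, n = 3) in columella, with changes of -0.62 to -0.03 log2 elsewhere. AT4G14270 fell from 2479 ± 832 to 438 ± 124 (SD, n = 3). AT4G18280 fell from 129 ± 23.4 to 23.6 ± 9.42 (SD, n = 3), while the other groups stayed between 100.5 and 155. Their differences were -2.41, -2.21 and -2.03 log2.

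**Figure D2:**
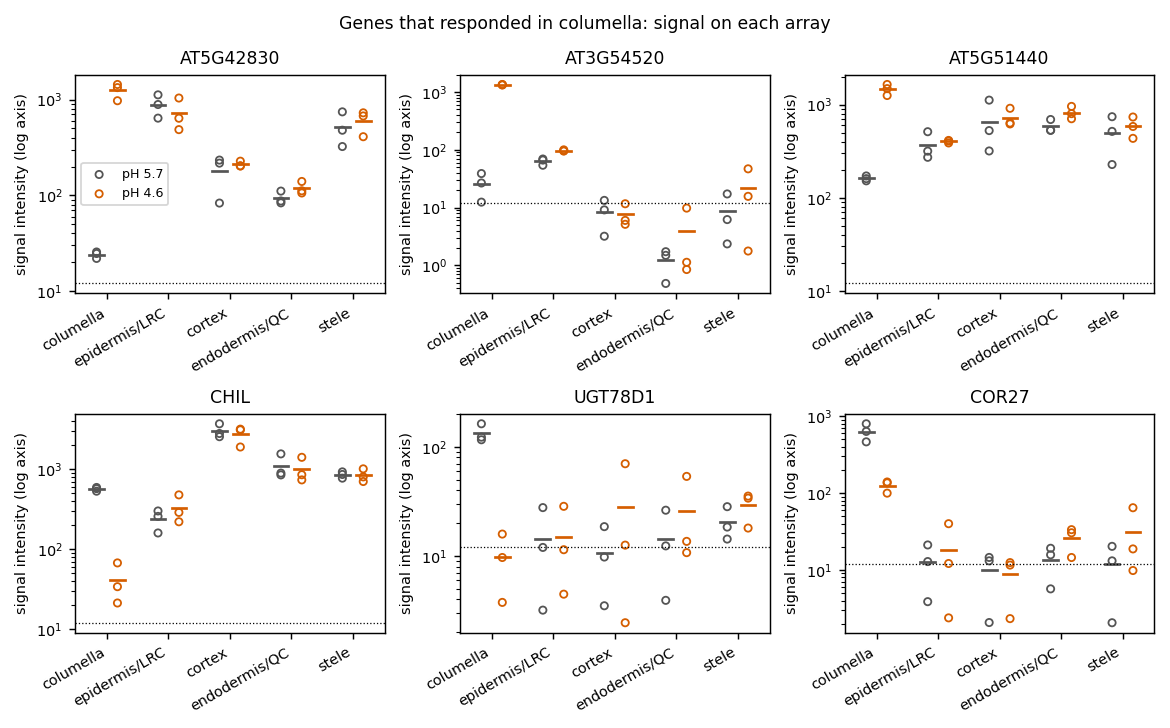
MAS5 signal on each array (vertical, log axis) by cell type (horizontal) for 6 genes that responded in columella; grey circles are pH 5.7, orange circles pH 4.6, short bars the means of 3 arrays, and the dotted line the added 12. AT5G42830, AT3G54520 and AT5G51440 rose in columella and CHIL, UGT78D1 and COR27 fell there, and none of the 6 had a called response in another cell type.

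Responses missing from columella were led by PDC2, a pyruvate decarboxylase, which makes acetaldehyde in ethanol fermentation. In columella it gave 442, 655 and 614 at pH 5.7 and 554, 339.6 and 479 at pH 4.6, which overlap, and the change of -0.32 ± 0.29 was not called. It rose 6.46-fold in epidermis (to 340.3), 8.20-fold in cortex (to 1774), 8.45-fold in endodermis (to 1376) and 5.22-fold in stele (to 642). Columella held the highest PDC2 signal of all cell types at pH 5.7, where the others had means of 47.7 to 207, and it was passed by all but epidermis at pH 4.6. The difference was -3.12 ± 0.32 (limma adjusted p = 1.5e-07), and it was called against each of the other four.

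NDB3, an external NAD(P)H dehydrogenase of the inner mitochondrial membrane, gave 52.7, 37.9 and 30.2 and 61.4, 63.7 and 42.2 in columella. It rose by 1.86 log2 in cortex, 2.35 in endodermis and 2.27 in stele. In epidermis its change of 0.43 ± 0.30 was uncalled too, and columella did not differ from epidermis by the test, so a missing response was not shown to set columella apart from epidermis. AT3G26580 had columella means of 988 and 776, above all other groups, and rose in cortex, endodermis and stele by 0.96 to 1.71 log2. In epidermis its change of 0.28 was uncalled, and so was columella minus epidermis (-0.61, adjusted p = 0.38). AT2G22590 and AT5G59530 were faint in columella at either pH, with means of 11.4 to 18.7. Columella was called against cortex and endodermis only for both genes. Against epidermis it was uncalled (adjusted p = 0.444 and 0.193), where the changes of 0.56 and 0.83 were uncalled too, and against stele as well (0.0882 and 0.768), where AT5G59530 changed by 0.03. Their differences of -1.87 and -1.32 lost their call in some alternatives, AT2G22590 without replicate 3 of columella at pH 4.6 (adjusted p = 0.096) or at pH 5.7 (0.053) and AT5G59530 in 8 of 44 settings (up to 0.141).

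Of the 5 genes named for a fall missing from columella, 4 were dim there at either pH. GAT1_2.1, annotated as a glutamine amidotransferase, gave 1.53, 2.26 and 1.78 at pH 5.7 and 1.63, 1.23 and 2.72 at pH 4.6 in columella, all far under the added 12. In the other cell types it fell, with changes of -1.58 to -2.91 log2, from means of 106 to 374. The difference was 2.10 ± 0.51 with a limma adjusted p of 0.00748, and it sets a fall against a signal near the bottom of the scale. Against endodermis and stele separately it was uncalled (adjusted p = 0.158 and 0.178). AT3G32030 and AT2G36430 were also dim in columella, with means of 1.80 to 6.34. AT3G32030 was uncalled against epidermis (limma adjusted p = 0.0767), and AT2G36430 was called against each of the other four. AT4G22640 had columella means of 15.3 and 14.0 and fell from 3009 to 429 in epidermis and from 1107 to 112 in stele. In cortex it was as dim as in columella, with means of 15.6 and 10.4, and columella minus cortex was 0.10 (adjusted p = 0.959). Columella minus endodermis was uncalled too (1.30, limma adjusted p = 0.213). A missing fall was thus not shown to set columella apart from cortex or endodermis. The call of the difference was lost in 5 of 44 settings (adjusted p up to 0.11).

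AT4G22212 was measurable in columella, at 64.8, 97.3 and 96.9 and 59.3, 72.4 and 45.0. It fell in all of the other four, with changes of -1.80 to -3.58 log2, from 2654 to 741 in stele. Columella was uncalled against cortex and against stele separately (limma adjusted p = 0.0699 and 0.224). Over the whole class, 69.4% of the 124 probe sets had a mean at pH 5.7 in another cell type that was 4-fold or more the columella mean, against 11.6% of all probe sets, and 17.7% had columella means under 12 at both pH, against 19.6%. The pH 5.7 arrays are part of the contrast itself, so these shares are a description.

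Opposite responses were found for GI, the clock protein GIGANTEA, which links the circadian clock to flowering. In columella it gave 1202, 1209 and 1149 at pH 5.7 and 93.0, 204 and 359 at pH 4.6, a 5.90-fold fall without overlap. In each of the other cell types all pH 4.6 arrays lay above all pH 5.7 arrays, by 0.30 to 1.09 log2, with a call in cortex and in the mean of the other four (0.60 ± 0.12). The difference was -3.16 ± 0.27 (limma adjusted p = 3.87e-09). Columella was thus the brightest cell type for GI at pH 5.7 and the dimmest at pH 4.6.

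AT5G62210 went from 245, 170.2 and 328 to 23.7, 33.1 and 46.7 in columella. It rose in epidermis and cortex, in cortex from 569.5 to 1351, and the difference was -3.47 ± 0.38 (limma adjusted p = 3.9e-07). CHX16, a cation/H+ exchanger, gave 171, 162 and 180.2 and 71.9, 58.4 and 33.4 in columella. It rose by 0.72 log2 in the mean of the other four, although its group means in endodermis stayed under 12, and the difference was -2.22 ± 0.34. AT1G73760 and AT5G62150 fell in columella, with changes of -1.67 and -1.50 log2, and rose by 0.57 and 0.58 in the mean of the other four. All 5 of these genes passed the test against each of the other four.

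In the opposite direction, AT4G17900 rose from 175, 246 and 209 to 899, 834 and 947 in columella. It fell in the mean of the other four by -0.49 ± 0.12 (SE), from 1787 to 1214 in endodermis, though no cell type was called by itself. Columella thus started below all other cell types and ended among them, with a difference of 2.53 ± 0.27 (limma adjusted p = 2.38e-07). TBL37, of a family that acetylates wall polysaccharides, gave 39.9, 78.1 and 64.8 and 106, 166 and 175 in columella. It remained far brighter elsewhere, with means of 818 to 3942 at pH 4.6, and the changes there were -0.85 to -0.56 log2. PRN, a pirin, rose from 29.5 to 97.7 in columella, and AT2G37540 rose from 692 to 2633. Elsewhere PRN changed by -0.72 to 0.08 log2, with no cell type called by itself. AT2G37540 fell with a call in stele alone (-0.94), and had uncalled changes of -0.73 in epidermis, 0.06 in cortex and 0.04 in endodermis. AT5G38700 rose from 117 to 331, but in cortex it had a positive change of 0.63, and columella was not called against every other cell type.

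**Figure D3:**
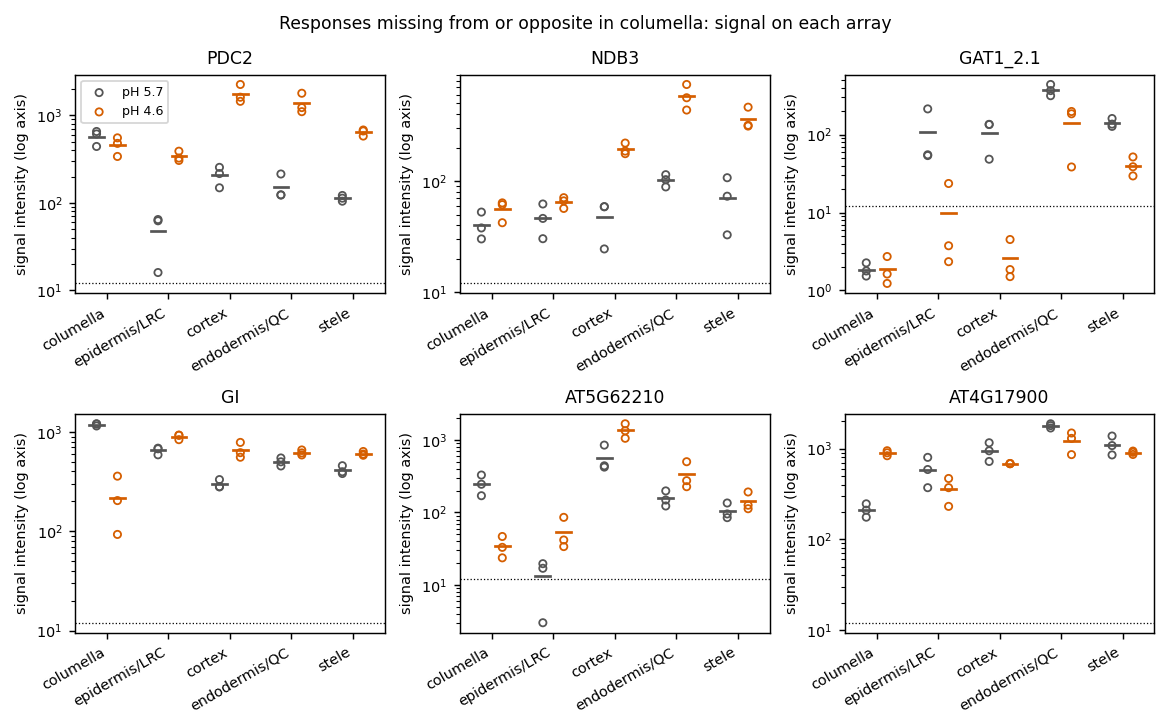
MAS5 signal on each array (vertical, log axis) by cell type (horizontal) for 3 genes whose response was missing from columella (PDC2, NDB3, GAT1_2.1) and 3 with an opposite response there (GI, AT5G62210, AT4G17900); grey circles are pH 5.7, orange circles pH 4.6, short bars the means of 3 arrays, and the dotted line the added 12. PDC2 overlaps between the pH values in columella and in no other cell type, and GI is lower at pH 4.6 in columella alone.

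Some columella responses had the sign of the mean of the other four and were larger than it. AT2G41730, entered in the list of mitochondrial stress genes, went from 66.9, 83.5 and 95.5 to 10738, 9161 and 9451 in columella. It rose by 1.15 log2 in epidermis, 2.93 in cortex, 2.87 in endodermis and 1.89 in stele, against 6.71 ± 0.25 in columella. Columella held the lowest mean of the 5 cell types at pH 5.7 and the highest at pH 4.6, where the next was 2804 (difference 4.50 ± 0.28, limma adjusted p = 6.86e-12).

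AT1G05060 gave 170.4, 145 and 169 and 4793, 4899 and 5298 in columella, against at most 219 in the other group means, with a difference of 3.66 ± 0.29. AT4G27580 reached 220.0 and AT4G16680 611 in columella at pH 4.6, with differences of 2.61 and 2.61 log2. AT4G16680 was under or near 12 at pH 5.7 in several groups and lost its call at a pseudocount of 1 (adjusted p = 0.097). Against cortex, where it rose by 3.02, it was uncalled (adjusted p = 0.16). Falls larger than the mean of the other four were seen for AT4G30650 (difference -2.25), AT5G51470 (-2.09), AT5G45650 (-1.96) and the endoglucanase GH9B6. AT4G30650 changed by 0.01 in epidermis, and AT5G51470 was under 12 in cortex, endodermis and stele. GH9B6 went from 2135, 1208 and 1310.0 to 194, 242 and 275 in columella. It was over 12 elsewhere only in epidermis, where it went from 111 to 28.9 (-1.46 log2, called), and columella minus epidermis was uncalled (-1.16, adjusted p = 0.125). Its difference of -2.07 ± 0.34 from the mean thus rests on groups under the added 12, and it lost its call at a pseudocount of 1 (adjusted p = 0.091), as did that of AT5G51470 (0.082).

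**Figure D4:**
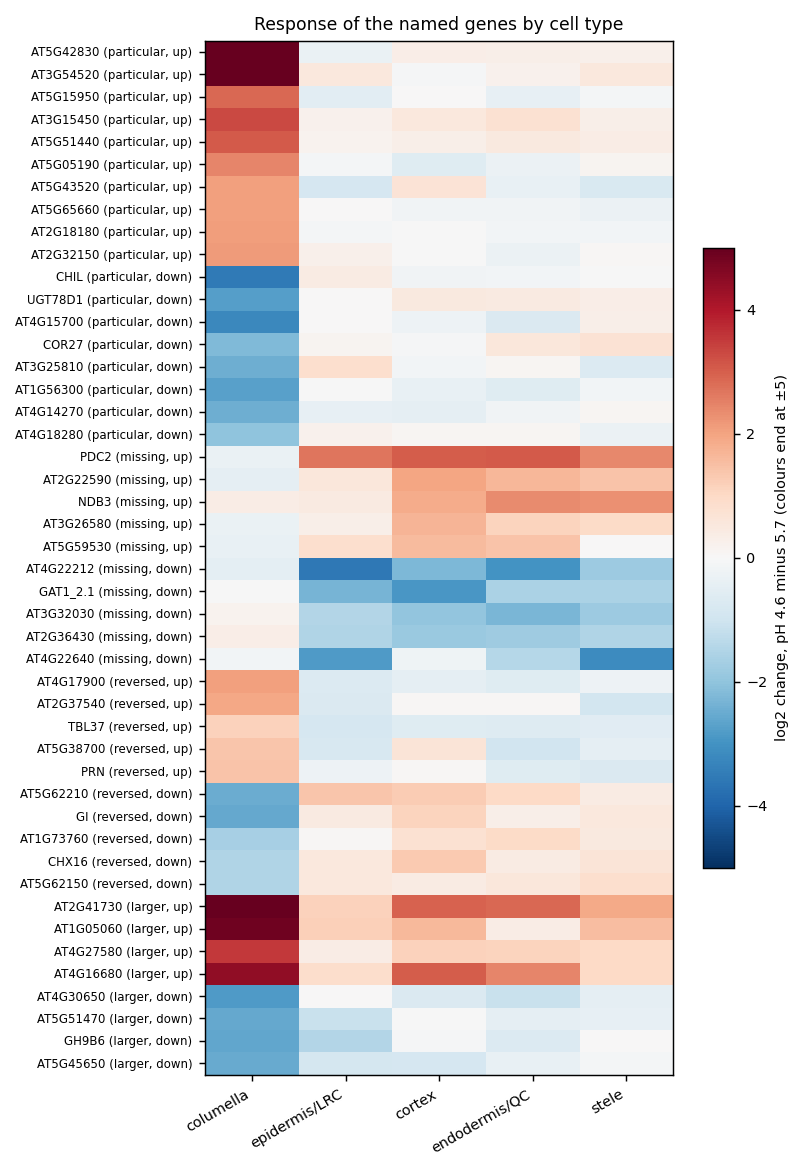
Log2 change from pH 5.7 to pH 4.6 in each of the 5 cell types (columns) for the 46 genes named by class (rows); red is higher and blue lower at pH 4.6, and colours end at ±5, which AT2G41730 (6.71), AT3G54520 (5.21) and AT5G42830 (5.11) exceed in columella. The columella column is the darkest where a response is particular or larger, pale where it is missing, and of opposite colour to the mean of the rest where it is reversed.

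Members of 20 lists of pathway and marker genes were then read against the 8.48% of all probe sets with a called difference. A member counts as measured if a probe set had it as a single gene in the table used for names. Such members were 10 of 22 for mitochondrial stress, 3 of 14 for fermentation, 6 of 20 for flavonoids and 4 of 28 for starch. The counts thus cover only part of each of these lists. Of 10 measured genes of mitochondrial stress, 6 had a higher and 1 a lower response in columella, with a median difference of 1.55 log2 against -0.06 over all probe sets. NDB2 and NDB4, both higher, and NDB3, the lower one, are among them and are described below. AT2G21640, entered as the oxidative stress protein UPOX, gave 25.5, 35.6 and 19.7 and 1676, 1666 and 1530.2 in columella. It rose in all cell types, by 1.98 to 3.26 log2 elsewhere and 5.41 ± 0.28 in columella, and the difference was 2.54 ± 0.31. AT2G04070, entered as a MATE transporter, went from 32.2, 7.56 and 24.6 to 162, 113 and 133 in columella and had no called response elsewhere (difference 1.87 ± 0.38). AT2G04050, another transporter entry, rose in columella and elsewhere, and its difference of 1.02 ± 0.39 was not called (limma adjusted p = 0.108). AT5G09570, entered as a twin cysteine protein, rose by nearly the same amount, 3.52 in columella and 3.58 in the mean of the other four, with a difference of -0.06 ± 0.35. AT5G64400 was not called either.

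The NDB genes, a family of 4 external NAD(P)H dehydrogenases, were set side by side after their values were seen. NDB4 gave 3.50, 8.06 and 3.29 at pH 5.7 and 223, 165 and 215 at pH 4.6 in columella. It rose elsewhere by 0.88 to 1.78 log2 from means of 102 to 218, so that columella, the lowest at pH 5.7, had a difference of 2.38 ± 0.23 (limma adjusted p = 4.49e-08). NDB2 gave 739.7, 691 and 644 and 1541, 1935 and 1760.4 in columella, with uncalled changes of at most 0.33 elsewhere. NDB1 had a difference of -0.31 ± 0.26, which was uncalled, and NDB3 had a called one of -1.34 ± 0.33. NDB2 and NDB4 thus rose further in columella than in the mean of the other four, while NDB3 had an uncalled change in columella and in epidermis and rose in the rest.

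Of 3 measured fermentation genes, PDC2 had its response missing and AT4G17260, entered as lactate dehydrogenase, had a larger one. AT4G17260 gave 177, 163 and 203 and 924, 955 and 981 in columella, a 5.03-fold rise, against 0.32 to 0.91 log2 elsewhere. Its difference was 1.71 ± 0.21 (limma adjusted p = 2.63e-06). Columella had the lowest mean of the 5 cell types for this gene at pH 5.7 and the highest for PDC2. The other, AT3G10040, was not called.

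**Figure D5:**
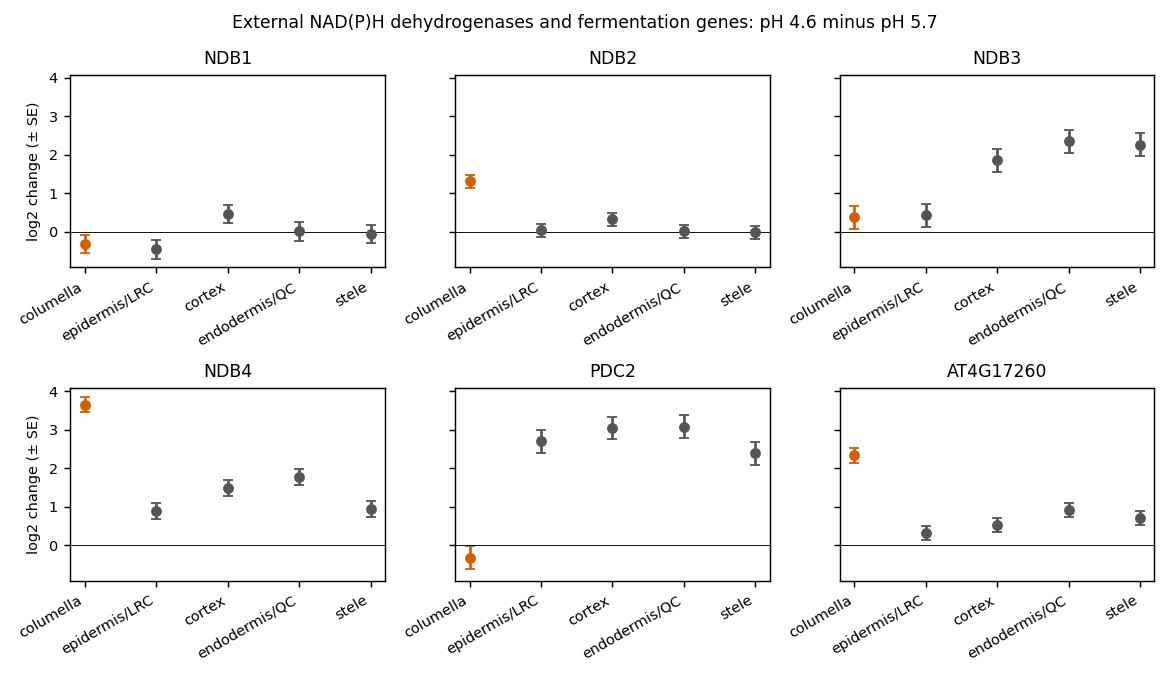
Log2 change from pH 5.7 to pH 4.6 (points, with SE bars from the fit) in the 5 cell types for the external NAD(P)H dehydrogenases NDB1 to NDB4 and the fermentation genes PDC2 and AT4G17260; columella is orange and the others grey. NDB2, NDB4 and AT4G17260 changed most in columella, while PDC2 and NDB3 had columella changes of -0.32 and 0.38.

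Of 6 measured flavonoid genes, 3 fell in columella with a called difference. Besides CHIL and UGT78D1 these were AT1G06000, entered as a flavonol rhamnosyltransferase, with 833, 610.4 and 731 and 325, 371 and 305 in columella and changes of -0.17 to 0.14 elsewhere. Its difference of -1.06 ± 0.30 lost its call in 4 of 44 settings, each without a columella array. UGT78D2, UGT78D3 and DFR had differences of -0.35, -0.11 and 0.49, all uncalled. The members that fell are thus CHIL and a pair of entries that add rhamnose, and the glucosyltransferase UGT78D2 was not among them.

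Of 4 measured starch genes, 2 fell in columella with a called difference, and both act in starch breakdown. PWD, the phosphoglucan water dikinase that prepares starch for breakdown, gave 3505, 2934 and 3015 and 1159, 1270.5 and 1368 in columella. Elsewhere its means were 64.1 to 105, and the difference was -1.47 ± 0.27 (limma adjusted p = 0.000515). DPE1, the plastid disproportionating enzyme, gave 1195, 1433 and 1275 and 351, 387 and 429.6 in columella. It also fell in epidermis with lateral root cap, from 202 to 54.7, and had positive changes of 0.54 to 0.69 in the inner cell types. Columella minus epidermis was -0.04 (adjusted p = 0.986), and the called fall in epidermis leaves it without a class. Its difference of -1.76 ± 0.41 was uncalled at a pseudocount of 1 (adjusted p = 0.071). SBE2.2, a branching enzyme, and APL3, a subunit of the enzyme that makes the glucose donor, had uncalled differences of -0.26 and -0.39.

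Of 27 measured expansin and XTH genes, which loosen or remodel the wall, 5 had a higher and 2 a lower response in columella. XTH18 gave 104, 84.6 and 71.3 and 459, 401 and 333 in columella. It rose in cortex as well, by 2.04 log2 against 2.06 in columella, and its difference from the mean was 1.36 ± 0.34. EXLA2 gave 28.6, 23.3 and 18.8 and 74.6, 89.9 and 92.5, with negative changes in epidermis and cortex and a positive one of 0.85 in stele (difference 1.46 ± 0.36). XTH33 went from 1.20, 1.84 and 1.38 to 23.6, 10.1 and 7.66 in columella, around the added 12, so its difference of 1.40 ± 0.31 rests on faint signals. XTH19 was higher by 0.88 and EXPB1 by 1.08, the latter with columella means of 3.50 and 12.6. EXPA4 and EXPA15 fell in columella, with means of 757 to 329.8 and 114 to 31.3.

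Of 5 measured genes of iron uptake and coumarins, AT3G13610, the F6'H1 enzyme that makes the coumarin scopoletin's precursor, gave 78.9, 76.2 and 32.0 and 451, 343 and 418 in columella. It rose in endodermis too, by 1.37 log2, and its difference was 1.95 ± 0.38 (limma adjusted p = 0.000964). BGLU42, a beta-glucosidase that releases coumarins, had a rise missing from columella, with a difference of -0.77 ± 0.18. Of 4 dehydration genes, the dehydrin LTI30 rose further in columella, from 1819.9, 1755 and 1495 to 6026, 5708 and 5237, against 0.22 to 1.19 log2 elsewhere. It rose in epidermis too, with a call, and columella minus epidermis was uncalled (0.55, adjusted p = 0.161). COR47, COR15A and COR15B had uncalled differences.

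Of 6 auxin response genes, IAA30 alone had a called difference. It gave 41.1, 50.8 and 35.5 and 133, 116 and 106 in columella and had no called response elsewhere (difference 1.38 ± 0.37, limma adjusted p = 0.016, lost in 3 of 43 settings, up to 0.111). Of 13 glutathione transferases, GSTU16 rose from 96.9 ± 20.9 to 482 ± 45.3 (SD, n = 3) in columella, with a difference of 1.91 ± 0.25. GSTU20 had a difference of -1.49 ± 0.47, a call that held in 19 of 43 settings. Hsp70-2, a chaperone, rose from 165 ± 8.46 to 459 ± 67.9 (SD, n = 3), with changes of -0.27 to 0.27 elsewhere.

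Of 3 measured vacuolar proton pump genes, VHA-A1 had a difference of -0.63 ± 0.20, with an adjusted p of 0.0498 and a call in 11 of 44 settings. VHA-A2 and VHA-A3 had uncalled differences. In columella itself, 2 of the 3 pump genes were called lower, and 1 was in the mean of the other four. The differences of the 2 measured genes of the proton and aluminium tolerance list and of the gravity gene AT1G72490 were uncalled as well. Of the 2 tolerance genes, 1 was called higher in columella itself. No probe set of the cyclin and aquaporin lists had a single gene in the table used here. Among cell type markers, only the cortex marker AT3G21670, the nitrate transporter NPF6.4, had a called difference (1.13 ± 0.30). Its columella means were 3.65 and 5.47, under the added 12, it fell in epidermis, endodermis and stele, and the call was lost in 3 of 43 settings (adjusted p up to 0.103).

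Several of the genes named from these lists were called against the mean of the other four but not against each cell type. PWD was uncalled against epidermis (adjusted p = 0.0627), AT3G13610 against endodermis (0.164) and XTH18 against cortex (0.994). EXLA2 and XTH33 were uncalled against endodermis and stele, Hsp70-2 against epidermis and stele, BGLU42 against cortex and endodermis, and AT3G21670 against epidermis and cortex. AT1G06000, IAA30 and GSTU20 were called against 1 cell type each and VHA-A1 against none.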

How the data were processed

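Expression was measured in 30 arrays of 5 sorted root cell types at pH 4.6 and pH 5.7. The deposited values are probe set signal intensity on a linear scale, made with MAS5 per the submitters' processing notes; version and genome build are not given in the sources used here. Every array had a trimmed mean of 250.0, with 2% left out at each end. Groups and replicate numbers come from the labels. From the deposited intensity, log2(signal + 12) was computed, the 64 control probe sets of 22810 were set aside and no filter was applied. limma 3.58.1 in R 4.3.3 fitted a mean for each of 10 groups with trended empirical Bayes moderation (20 residual and 7.70 prior degrees of freedom). P-values were adjusted after Benjamini and Hochberg across 22746 probe sets. The script was tested on simulated data.

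A table of probe sets gave 1 gene matching the TAIR10.1 RefSeq annotation for 13436, an unmatched gene for 77, several for 503 and none for 8730; only the first are named. Named genes were ranked by difference within each class, 10 and 8 particular, 5 and 5 missing, 5 and 5 reversed, 4 and 4 larger, and up to 3 called members of each list, 63 in all. Missing genes needed values without overlap in at least 3 of the other four. Members, lists and rules were chosen with earlier results of these data known, and families named by symbol after their values were seen. Alternatives were other pseudocounts, scalings, filters and moderation, a replicate block, a 2-fold limit, a comparator without 1 cell type, and leaving out each array. The number of arrays limits the precision.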

Additional observations from a re-analysis of the deposited data

Results flagged for a closer look

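The difference in acid response between columella and the mean of the other four was itself tested. All 63 genes were named from the called differences, so that each passed the threshold follows from the choice and is no further result. In this section each gene is followed by that difference in log2, columella minus the mean of the other four.

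Among the named genes that rose in columella with no called mean response elsewhere, the differences were those of AT5G42830 (4.96), AT3G54520 (4.90), AT5G15950 (3.12), AT3G15450 (2.85), AT5G51440 (2.75), AT5G05190 (2.64), AT5G43520 (2.39), AT5G65660 (2.20), AT2G18180 (2.19), AT2G32150 (2.14), IAA30 (1.38), EXLA2 (1.46), GSTU16 (1.91) and Hsp70-2 (1.41). Among those that fell there, they were those of CHIL (-3.57), UGT78D1 (-3.10), AT4G15700 (-3.06), COR27 (-2.56), AT3G25810 (-2.46), AT1G56300 (-2.41), AT4G14270 (-2.21), AT4G18280 (-2.03), PWD (-1.47), AT1G06000 (-1.06), VHA-A1 (-0.63) and GSTU20 (-1.49). For rises missing from columella they were those of PDC2 (-3.12), AT2G22590 (-1.87), NDB3 (-1.34), AT3G26580 (-1.34), AT5G59530 (-1.32) and BGLU42 (-0.77), and for falls missing from it those of AT4G22212 (2.19), GAT1_2.1 (2.10), AT3G32030 (2.07), AT2G36430 (2.00), AT4G22640 (1.78) and AT3G21670 (1.13).

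Genes that rose in columella and fell in the mean of the other four were AT4G17900 (2.53), AT2G37540 (2.32), TBL37 (1.81), AT5G38700 (1.78), PRN (1.78) and XTH33 (1.40). Genes that fell in columella and rose in that mean were AT5G62210 (-3.47), GI (-3.16), AT1G73760 (-2.24), CHX16 (-2.22) and AT5G62150 (-2.07). Rises larger in columella than in that mean were those of AT2G41730 (4.50), AT1G05060 (3.66), AT4G27580 (2.61), AT4G16680 (2.61), AT2G21640 (2.54), AT4G17260 (1.71), AT3G13610 (1.95), LTI30 (1.19) and XTH18 (1.36), and falls larger than in that mean were those of AT4G30650 (-2.25), AT5G51470 (-2.09), GH9B6 (-2.07) and AT5G45650 (-1.96). DPE1 (-1.76) fell in columella and in epidermis and has no class.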

How the results depend on the processing

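The 63 named differences kept their sign in every alternative that tested them. With the 2-fold limit left out of the count, 49 of them kept their call in every setting that tested them. Some dim genes were tested in 43 of the 44 settings, since a filter set them aside. Those that lost their call are given with their genes. The 2-fold limit was not passed by BGLU42 (-0.77) and VHA-A1 (-0.63). The count of called differences, 1928, lay between 1737 and 2222 for other pseudocounts, scalings, filters, moderation and comparators, except for array weights, which gave 3063 (1312 higher, 1751 lower), and a 2-fold limit, which gave 1130 (549 lower). Equal array medians gave 94 rises missing from columella, 51 falls against a rise elsewhere and 3 smaller rises. Pseudocounts of 1 and 50 gave 72 and 188 falls missing from columella. Array weights gave 295 and 259 missing rises and falls, 136 reversed rises, 227 and 237 larger rises and falls and 19 smaller rises. The 2-fold limit left 211 and 317 particular rises and falls, 51 and 77 missing ones, 70 larger falls and 1 smaller rise. Testing only probe sets with a mean above the median gave 107 reversed rises and 11 smaller rises. Smaller rises numbered 8 with the percentile filter and with robust moderation, and 9, 0 and 13 with a comparator without epidermis, cortex or stele. Of these shifts the causes were not tested.

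Leaving out 1 array at a time gave 1353 to 2241 differences, 601 to 994 higher and 700 to 1247 lower. The classes ran from 235 to 364 and 372 to 639 particular rises and falls, 77 to 209 and 54 to 200 missing, 53 to 98 and 54 to 91 reversed, 121 to 167 and 96 to 171 larger, and 0 to 9 smaller, and list members called from 23 to 30. Without columella pH 4.6 replicate 1 there were 700 lower differences, 372 particular falls, 77 missing rises and 96 larger falls. Missing rises were 78 and 96 without replicates 2 and 3 of that group, and 88 and 85 without pH 5.7 replicates 2 and 3. Missing falls were 64 and 62 without pH 4.6 replicates 2 and 3, 65, 61 and 54 without each pH 5.7 replicate, and 200 without epidermis pH 5.7 replicate 2. Counts of missing responses thus depended on single arrays. A replicate block gave 1889 calls, 1818 of them shared, and VHA-A1 and GSTU20 lost their call under it (adjusted p = 0.055 each). Deviations of same-numbered arrays of a cell type correlated with r of -0.11 to 0.15, with 5 of 15 pairs over 0.1. Of 30 arrays, 9 correlated best with their own number. These values do not show pairing by replicate number. They cannot exclude it, since the block is shared by all cell types and each group has 3 arrays. The number of arrays and, for signals near 12, the bottom of the intensity scale limit what can be called.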

Other observations

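Some gene families outside the lists were grouped by symbol after their values were seen, so their counts are descriptions; over all probe sets, 3.66% had a higher and 4.81% a lower response in columella. The 2 asparaginases moved apart in columella. ASPGB1 gave 108, 81.8 and 126 at pH 5.7 and 757, 759 and 862 at pH 4.6 there, with a difference of 2.48 ± 0.25 from the mean of the other four. It rose in epidermis (0.92) and cortex (0.82) too and had uncalled changes of -0.19 and -0.28 in endodermis and stele. ASPGA1 gave 738, 875 and 794 and 395, 401 and 403, fell 1.97-fold in columella and had positive changes of 0.18 to 0.57 log2 elsewhere, with a difference of -1.28 ± 0.24. Of 4 measured subunits of ATP citrate lyase, which makes acetyl-CoA in the cytosol, 3 fell in columella with a called difference. ACLA-3 went from 925, 837 and 856 to 331, 369 and 332 in columella, with changes of -0.22 to 0.28 elsewhere. ACLA-1 and ACLB-1 had differences of -0.89 and -0.85.

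Of 15 measured endoglucanases of the GH9 family, 2 had a higher and 2 a lower response in columella. GH9B13 fell in the other four, with changes of -0.88 to -2.75 log2, and kept 1332, 1855 and 2205 and 1630.1, 1526 and 1744 in columella, a difference of 1.55 ± 0.27 at a bright signal. GH9B8 had a like difference (1.49) but was under 12 in columella, and of its responses elsewhere cortex alone was called (-2.64, against -0.30 in epidermis, -0.93 in endodermis and -0.08 in stele). GH9B7 fell further in columella than in the mean of the other four (-0.85) as did GH9B6. Among 7 ATG8 autophagy genes, ATG8C and ATG8H were higher (0.97 and 0.61) and ATG8B was lower, with a columella change of 0.58 against 2.04 in the mean of the other four. Of 7 measured tubulin genes, TUA6, TUB6 and TUB9 fell further in columella than in that mean (differences -0.71, -0.98 and -0.58) and TUB5 was higher (1.25). The endoplasmic reticulum body glucosidase PYK10 went from 12440.2, 13864 and 13670.5 to 4558, 5104 and 4922 in columella (difference -0.96 ± 0.24), and BGLU25 and JAL34 had differences of -1.15 and -0.93. Of a list of 29 genes of the circadian clock and its output, only GI, COR27 and AT4G33980 had a probe set with a single gene in the table used for names. All 3 had a lower response in columella, AT4G33980 by -1.36 log2. The other members of that list were not traced to a probe set, so the list as a whole was not read.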
